A study of Saccharomyces cerevisiae with 6 samples.

Results

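Middle and late sporulation genes were followed in budding yeast (Saccharomyces cerevisiae) growing vegetatively, in the reference strain FY4 and in a strain lacking BAS1. The group is a named list of 37 genes: the activator gene NDT80, the SUM1, RFM1 and HST1 genes of the repressor of the middle genes, and 33 genes that act in spore formation. Each of the 37 was read by 1 probe set, and they are 37 of the 5449 genes tested. The study measured messenger RNA on Affymetrix arrays, which carry short DNA probes for every gene, in 3 samples of wild-type FY4 and 3 of the BAS1 deletion mutant. Bas1 is a DNA-binding activator, best known for its control of adenine and histidine synthesis. Both strains were harvested while dividing exponentially in glucose minimal medium, at equal cell density, so neither was put through sporulation. The mating type and ploidy of the strains, the background of the deletion strain, and how BAS1 was removed were not stated in the material used. The labels do not say whether the 3 replicates of a strain came from separate cultures, and the p-values below therefore reflect the scatter among these samples, which may be technical.

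Starved diploid yeast cells can leave the mitotic cycle, pass through meiosis and pack the products into spores. The middle genes of this programme are switched on by the transcription factor Ndt80, and in dividing cells many of them are kept off by Sum1, which binds overlapping DNA sites and, through Rfm1, brings in the NAD-dependent histone deacetylase Hst1. Their products build the prospore membrane, which grows from the spindle poles around each nucleus, and then the spore wall, with inner layers of mannan and glucan and outer layers of chitosan and dityrosine.

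Levels are log2 of the deposited intensities, and a difference is the deletion mean minus the wild-type mean on that scale. BAS1 itself (YKR099W) read 11.18, 10.96 and 11.14 in the wild-type arrays and 4.86, 4.76 and 4.86 in the deletion arrays, in accord with the labels. A gene was taken as above background in an array where it exceeded the 95th percentile of the 1746 probe sets that match no S. cerevisiae gene of the annotation table, a level of 6.09 from their means, or that array's own percentile where higher. The levels in use ran from 6.22 to 6.60 in wild type and from 6.09 to 6.12 in the deletion strain. Of the 37 genes, 27 were above background in all 6 arrays, 7 were at background in every wild-type array, and 1 of these, CDA2, was at background in both strains. Some features of the arrays moved with strain. The median difference of all tested genes was 0.11, the 1746 unmatched probe sets had a median difference of -0.19, and all 16 probe sets for 18S and 25S rRNA read lower in the deletion arrays, with a median difference of -3.09. The part of these shifts in the results below was not tested. In a bulk sample, fewer cells that express a gene and less RNA per cell cannot be told apart.

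A large share of the sporulation genes stood higher in the dividing deletion cells, some of them by several-fold. Limma, a linear model fitted over all genes, called 21 of the 37 higher in the deletion strain and 6 lower, at a Benjamini-Hochberg adjusted p under 0.05 (n = 3 per strain). The same test called 59.5% of all tested genes, 39.6% higher and 19.8% lower, so the 56.8% of the list called higher has to be read against a comparison in which most genes differed. A rise of at least 2-fold was called for 14 of the 37, against 8.33% of all tested genes, counted by the log2 difference and including SPO74, which was near background, and a fall of that size for 1, against 1.14%. The median difference over the list was 0.63. The list was chosen with earlier results of these data known, so its share beside that of all genes is not a test. CDA1, with the largest rise of the list, ranked 10 among the rises of all 5449 genes, and 6 of the 37 were among the 100 largest rises, which are 1.84% of the genes. The 3 deletion arrays lay entirely above the 3 wild-type arrays for 24 members, against 43.7% of all genes, and entirely below for 6, against 23.7%. For a single gene, an exact two-sided permutation test of 3 against 3 arrays cannot go below p = 0.1, the value that complete separation gives.

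**Figure D1:**
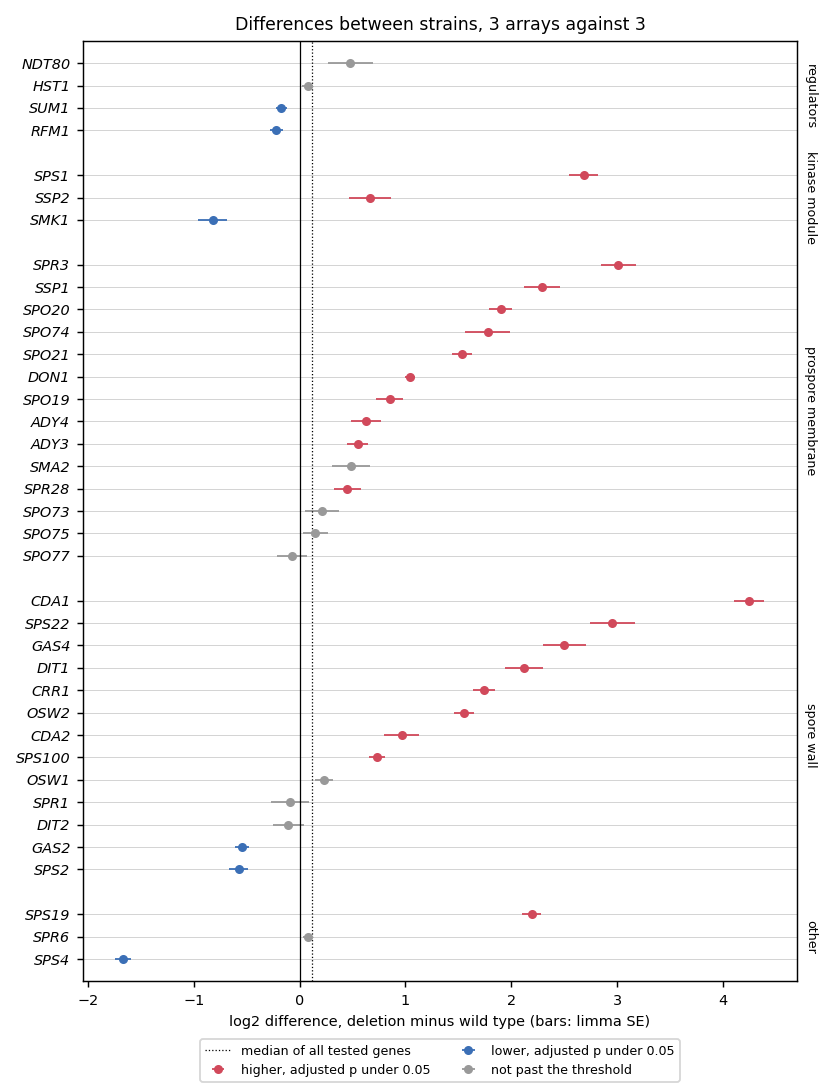
Log2 difference between the strains (deletion minus wild type, horizontal axis) for each of the 37 genes, grouped by role, with bars for limma's standard error and n = 3 arrays per strain. Red genes passed the threshold as higher, blue ones as lower and grey ones did not pass it; CDA1 lies furthest to the right at 4.25 and SPS4 furthest to the left at -1.67, and the dotted line is the median of all tested genes.

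**Figure D2:**
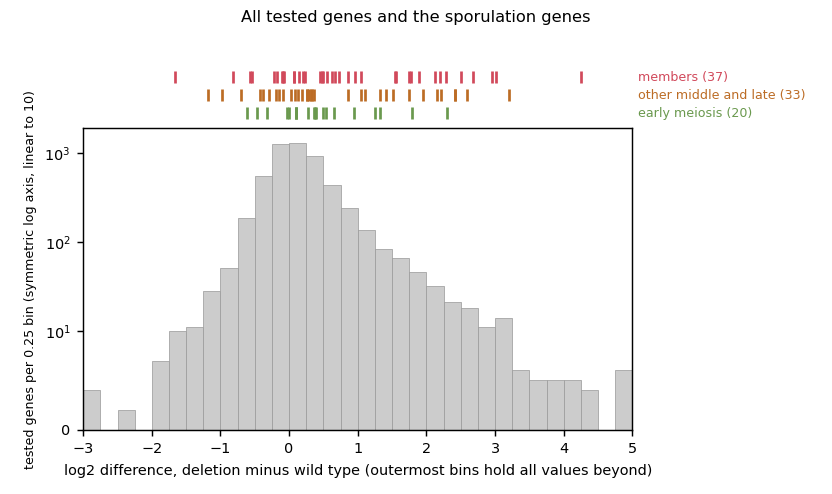
Number of tested genes in each 0.25-wide bin of the log2 difference, on a symmetric log axis, with a tick above for each of the 37 members, of 33 other middle and late genes and of 20 early meiosis genes. The members' ticks reach from -1.67 to 4.25, and 14 of them lie above a difference of 1.

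Of the 4 regulators of the middle genes, SUM1 and RFM1 were called lower, beside 19.8% of all tested genes. NDT80 and HST1 did not pass the threshold. NDT80, the activator gene, read 7.94, 7.90 and 7.56 in wild type and 8.33, 7.86 and 8.66 in the deletion strain. The ranges overlapped through the second deletion array, and the difference of 0.48 (SE 0.21, limma adjusted p = 0.094) did not pass the threshold, with a 95% interval from -0.035 to 0.99. The call depended on single arrays: without deletion replicate 2 NDT80 passed at 0.69 (adjusted p = 0.018), and after quantile normalization its sign turned to -0.37. SUM1, which encodes the DNA-binding subunit of the repressor, read 12.06, 11.94 and 12.01 in wild type and 11.77, 11.87 and 11.86 in the deletion strain. All 3 deletion values were lower, by 0.17 on average (SE 0.05, adjusted p = 0.033). RFM1, the adaptor gene, was lower by 0.22 (SE 0.06, adjusted p = 0.021). SUM1 lost its call in 5 of the 6 fits that left out 1 array (adjusted p up to 0.109) and RFM1 in 4 of 6 (up to 0.0726), and both did at the stricter threshold of 0.01. Both kept their sign and their call under array centring, cyclic loess and quantile normalization, with SUM1 at -0.29 and RFM1 at -0.46 under the last. HST1, the deacetylase gene, differed by 0.08 (SE 0.05, adjusted p = 0.25), with values from 12.12 to 12.25 in wild type and from 12.27 to 12.29 in the deletion strain, and turned to -0.08 after array centring. Where they were called, then, the falls in repressor messages were small, 1.13-fold for SUM1 and 1.17-fold for RFM1.

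Of the 3 genes of the kinase pathways that time spore assembly, 2 were called higher and 1 lower. Over all tested genes, 39.6% were called higher and 19.8% lower. SPS1 encodes a Ste20-family kinase needed for prospore membrane closure and wall formation. It read 6.85, 7.04 and 6.73 in wild type and 9.30, 9.67 and 9.71 in the deletion strain, a 6.43-fold rise (log2 difference 2.69, SE 0.13, adjusted p = 1.8e-05). Every deletion value lay at least 2 log2 units above every wild-type value. SMK1, a meiosis-specific MAP kinase gene, moved the other way, from 7.76, 7.81 and 7.84 to 7.29, 6.90 and 6.76, and fell 1.77-fold (log2 difference -0.82, SE 0.13, adjusted p = 0.0025). SSP2, whose product activates Smk1, rose from 7.06, 7.22 and 7.30 to 7.48, 7.81 and 8.29, a difference of 0.66 (SE 0.20, adjusted p = 0.028) that turned to -0.25 after quantile normalization. The call of SSP2 ended in 10 of 20 alternatives, among them array centring (adjusted p = 0.0555), cyclic loess (0.0913) and leaving out wild-type replicate 1, wild-type replicate 2 or deletion replicate 2 (0.0822, 0.0617 and 0.0658). The kinase gene and its activator gene thus had differences of opposite sign on the deposited values, but not after quantile normalization.

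Among 14 genes of the prospore membrane, 10 were called higher and none lower, beside 39.6% and 19.8% of all tested genes. Among the 10, SPO74 was near background. SPR3 encodes a septin, a filament-forming protein, that is made in sporulation. It read 6.31, 6.72 and 6.65 in wild type, where 2 of 3 arrays were above background, and 9.25, 9.73 and 9.73 in the deletion strain, an 8.07-fold rise (log2 difference 3.01, SE 0.17, adjusted p = 2.6e-05). SPR28, the other sporulation septin gene, rose far less, from 6.67, 6.81 and 6.35 to 7.01, 6.99 and 7.18 (difference 0.45, SE 0.13, adjusted p = 0.022), and its difference was -0.23 after quantile normalization. The call of SPR28 ended in 7 of 20 alternatives, among them array centring (adjusted p = 0.0584), cyclic loess (0.181), the 3 arrays with low spiked-in controls alone (0.126) and leaving out deletion replicate 3 (0.0727). The strains separated by 2.54 log2 units between the nearest arrays for SPR3 and by 0.18 for SPR28.

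SSP1, ADY3 and DON1 encode the coat at the leading edge of the growing membrane. SSP1 went from 8.09, 8.64 and 8.27 to 10.38, 10.69 and 10.80, a 4.90-fold rise (log2 difference 2.29, SE 0.17, adjusted p = 8.1e-05). DON1 went from 9.38, 9.45 and 9.44 to 10.41, 10.50 and 10.49, 2.06-fold higher (log2 difference 1.04, SE 0.05, adjusted p = 1.4e-05). ADY3 was 1.46-fold higher (log2 difference 0.55, SE 0.10, adjusted p = 0.0044), a call that ended after quantile normalization (0.22, adjusted p = 0.0633). All 3 coat genes were therefore higher on the deposited values, by amounts from 0.55 to 2.29.

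SPO21, SPO74 and ADY4 encode parts of the plaque on the spindle pole from which the membrane starts. SPO21 rose from 8.02, 8.32 and 8.09 to 9.57, 9.77 and 9.71, or 2.91-fold (log2 difference 1.54, SE 0.09, adjusted p = 3.8e-05). ADY4 rose 1.55-fold (difference 0.63, SE 0.14, adjusted p = 0.0099), and this call ended after quantile normalization (0.26, adjusted p = 0.135). SPO74 was at background in wild type, at 4.24, 4.10 and 4.62, and read 5.70, 6.14 and 6.43 in the deletion strain, where 2 of 3 arrays were above background. Its mean of 6.09 in the deletion strain did not exceed the wild-type background level, so no fold is given, although limma called the difference of 1.78 (adjusted p = 0.00068).

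SPO20 encodes a SNARE protein that fuses vesicles into the prospore membrane. It was at background in wild type, at 5.68, 5.93 and 5.97, and above it in all deletion arrays, at 7.66, 7.70 and 7.92, so it was at least 2.49-fold higher (limma adjusted p = 2.6e-05). Such bounds set the deletion mean against, in each wild-type array, the background level or the gene's own value if higher. SPO19, for a membrane-anchored protein linked to SPO20 function, was at background in wild type and at least 1.40-fold higher (adjusted p = 0.0017). The other 4 genes did not pass the threshold. SMA2, needed for membrane assembly, differed by 0.49 (SE 0.18, adjusted p = 0.057) and passed without wild-type replicate 3 (0.58, adjusted p = 0.0495). SPO73, SPO75 and SPO77, which act in membrane growth, wall formation and membrane closure, differed by 0.21, 0.15 and -0.07, with overlapping groups and 95% intervals that spanned -0.41 to 0.60 in all.

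**Figure D3:**
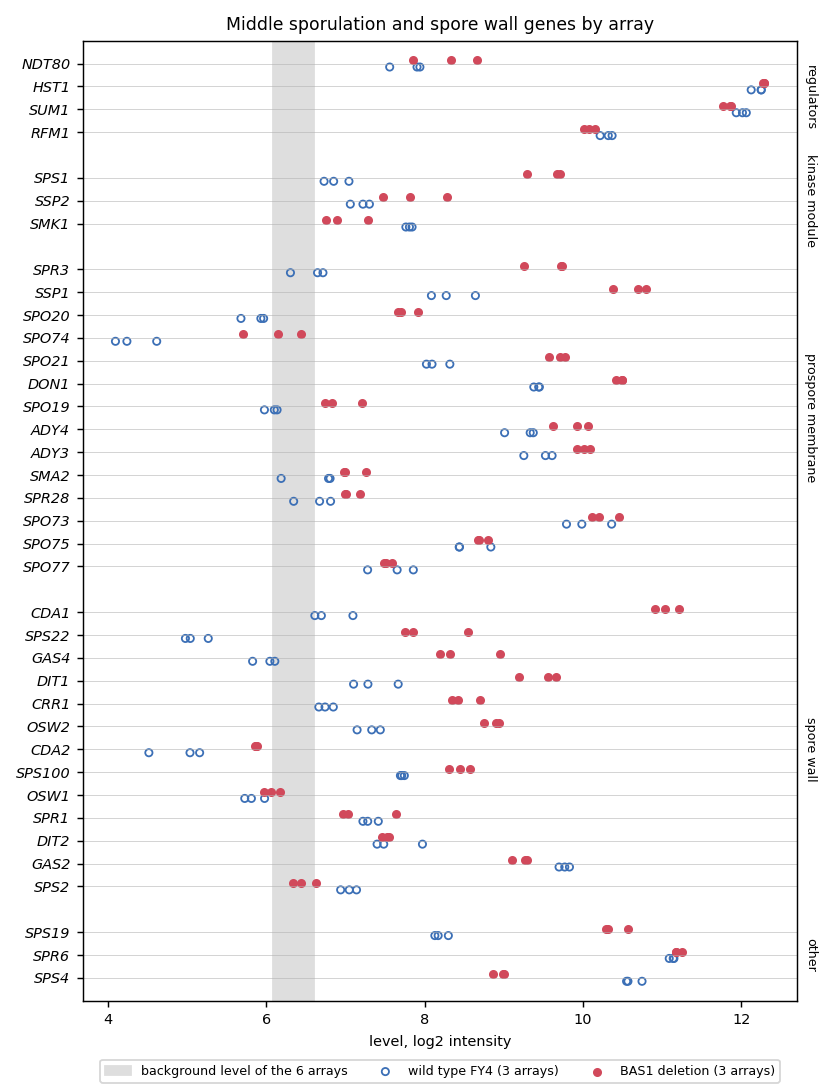
Level of each of the 37 genes in every array, as log2 intensity, with open blue points for the 3 wild-type arrays, red points for the 3 deletion arrays and a grey band for the range of background levels. The red points of CDA1, SPR3, SPS1, SPS22 and GAS4 stand well to the right of the blue ones, whose values for these genes lie within or near the band or below it.

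Of the 13 spore wall genes, 8 were called higher and 2 lower, beside 39.6% and 19.8% of all tested genes. Among the 8, CDA2 was at background in every array. The largest rise was in CDA1, a chitin deacetylase gene, whose enzyme makes the chitosan layer. It read 6.70, 7.09 and 6.61 in wild type and 10.91, 11.04 and 11.21 in the deletion strain, 19.0-fold higher (log2 difference 4.25, SE 0.14, adjusted p = 4.9e-06). CDA2, for the other chitin deacetylase, passed the test as well (difference 0.96, adjusted p = 0.0028), but its values, 4.52 to 5.16 in wild type and 5.85 to 5.88 in the deletion strain, were at background in every array, so no change of level is read from it.

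The glucan layer genes moved in both directions. GAS4, for a glucan-remodelling transferase of the spore wall, was at background in wild type, at 6.05, 6.11 and 5.83, and read 8.32, 8.20 and 8.96 in the deletion strain, at least 4.14-fold higher (limma adjusted p = 0.00012). GAS2, for the related transferase that acts beside it, fell 1.46-fold, from 9.70, 9.77 and 9.83 to 9.10, 9.27 and 9.29 (log2 difference -0.55, SE 0.07, adjusted p = 8e-04). The same contrast was seen for SPS22 and SPS2, a related pair that can stand in for each other in wall formation. SPS22 was at background in wild type, at 4.98, 5.27 and 5.04, and read 7.86, 7.75 and 8.55 in the deletion strain, at least 3.05-fold higher (adjusted p = 7.6e-05). SPS2 went from 7.05, 7.14 and 6.94 to 6.33, 6.63 and 6.44, 1.49-fold lower (log2 difference -0.58, SE 0.09, adjusted p = 0.0023). In each of these 2 pairs, the gene at background in wild type was the one that rose. The chitin deacetylase pair did not share this. There CDA1, above background in every wild-type array, rose, and CDA2, at background, gave no readable change. CRR1, for a glycosidase of the spore wall, rose 3.34-fold from 6.85, 6.74 and 6.66 to 8.35, 8.43 and 8.70 (log2 difference 1.74, SE 0.10, adjusted p = 3.3e-05). SPR1, a sporulation exoglucanase gene, read 7.22 to 7.41 in wild type and 6.97 to 7.64 in the deletion strain and did not pass (difference -0.09, adjusted p = 0.69).

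DIT1 and DIT2 encode the enzymes that make the dityrosine precursor of the outermost layer. DIT1 rose 4.36-fold, from 7.10, 7.67 and 7.28 to 9.20, 9.66 and 9.56 (log2 difference 2.12, SE 0.18, adjusted p = 0.00014). DIT2, a cytochrome P450 gene, read 7.97, 7.48 and 7.40 in wild type and 7.52, 7.47 and 7.55 in the deletion strain, a difference of -0.11 (SE 0.15, adjusted p = 0.57) with a 95% interval from -0.47 to 0.26. That interval leaves out a rise of the size seen for DIT1. OSW2, an outer spore wall gene, rose 2.94-fold, from 7.33, 7.44 and 7.15 to 8.74, 8.90 and 8.94 (log2 difference 1.55, SE 0.09, adjusted p = 3.3e-05). OSW1 was at background in wild type and in 2 of 3 deletion arrays and did not pass (difference 0.23, adjusted p = 0.053). SPS100, needed for wall maturation, rose 1.66-fold, from 7.69 to 7.74 up to 8.31 to 8.57 (log2 difference 0.73, SE 0.07, adjusted p = 0.00032), and its difference was -0.18 after quantile normalization.

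The remaining 3 members encode no known wall or membrane part. SPS19, for a peroxisomal dienoyl-CoA reductase that breaks down unsaturated fatty acids, rose 4.57-fold, from 8.13, 8.17 and 8.30 to 10.57, 10.29 and 10.32 (log2 difference 2.19, SE 0.09, adjusted p = 1.1e-05). SPS4, a sporulation gene whose role is not settled, had the largest fall of the 37. It went from 10.55, 10.57 and 10.75 to 8.87, 8.99 and 9.003, 3.18-fold lower (log2 difference -1.67, SE 0.07, adjusted p = 1.2e-05), with every deletion value below every wild-type value. SPR6 read 11.09 to 11.15 in wild type and 11.18 to 11.25 in the deletion strain, a difference of 0.08 (SE 0.05, adjusted p = 0.21).

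Some sporulation genes that lie side by side moved apart and others moved together. By the RefSeq table (assembly R64), 3 pairs of members are nearest tested neighbours: SPS1 and SPS2 and also DIT1 and DIT2 on chromosome IV, and CDA1 and CDA2, with 1 untested gene between them, on chromosome XII. SPS1 rose by 2.69 while SPS2 fell by 0.58. DIT1, which is transcribed away from DIT2 out of the same intergenic stretch, rose by 2.12, against -0.11 for DIT2. CDA1 rose by 4.25, and for CDA2, at background in every array, no change of level can be read. SPS18, a sporulation gene next to SPS19 on chromosome XIV, fell from 9.21, 9.16 and 9.18 to 8.89, 8.90 and 8.90 (difference -0.29, limma adjusted p = 0.0014) while SPS19 rose by 2.19. Taking the members with the other middle and late genes and the early meiosis genes, 9 pairs are nearest tested neighbours. Both genes were called higher in 4 of the 9, namely CDA1 and CDA2, RRT8 and LDS2 (0.86 and 2.41), SPO22 and HOP1 (0.49 and 2.29), and DMC1 and ISC10 (0.54 and 0.32). Both were called lower in 1, CLB1 and CLB6 (-0.98 and -0.70). The calls were opposite in 2, SPS1 with SPS2 and SPS19 with SPS18, and 1 gene was not called in the other 2, DIT1 with DIT2 and MIP6 with SPO13. The 14 members called at least 2-fold higher had 25 other nearest tested neighbours. Of these, 14 were called higher and 3 lower, against 39.6% and 19.8% of all tested genes, with a median difference of 0.21 against 0.11 over all genes, and 2 had a called difference of 1 or more. YCL049C near SPS22 differed by 1.29 (adjusted p = 1.1e-05). YOL131W beside GAS4 differed by 1.18 (adjusted p = 0.0032), but its means of 3.98 and 5.16 lay under the background level in both strains. These 2 were named after their values were seen.

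**Figure D4:**
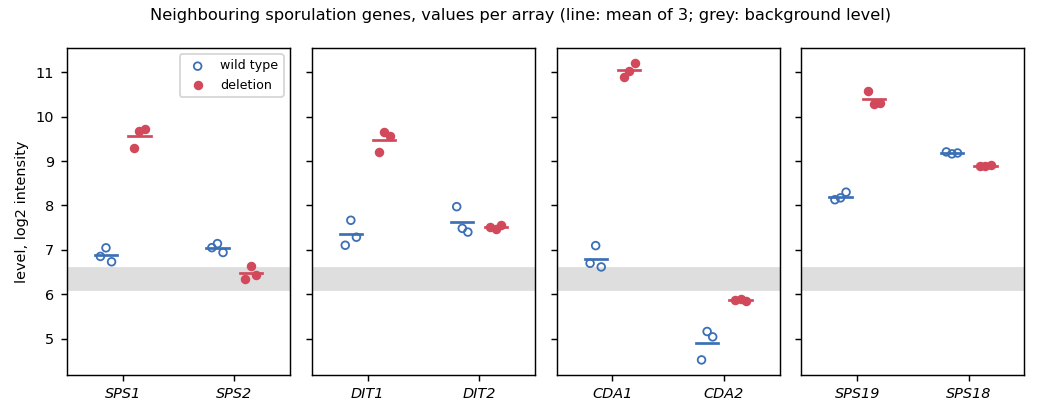
Level in each array, as log2 intensity, for 4 pairs of neighbouring sporulation genes, with open blue points for wild type, red points for the deletion strain, a line for each mean of 3 arrays and a grey band for the background levels. In each panel the left gene is higher in the deletion strain, while the right gene is lower (SPS2, SPS18), overlaps between strains (DIT2) or stays under the band (CDA2).

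The deletion arrays differed among themselves in a way that many members shared. The order of the arrays was not counted over all tested genes, so it is not read as a trait of the members. Deletion replicate 3 held the highest deletion value for 25 of the 37 genes, replicate 2 for 9 and replicate 1 for 3. Over the 14 genes called at least 2-fold higher, replicate 1 was the lowest for 11 and replicate 3 for none. The gap was widest for SPS22 and GAS4, where replicate 3 read 8.55 and 8.96 and the other 2 arrays at most 7.86 and 8.32. For each of the 14 genes the lowest deletion value was at least 0.96 log2 units above the highest wild-type value. The 14 were chosen by a called difference of at least 1 on these same arrays, so such a gap is partly built in. SPO74, among the 14, was at background in wild type and above it in 2 of 3 deletion arrays. Controls spiked into the RNA also split the arrays, into low ones (wild-type replicates 1 and 2, deletion replicate 1) and high ones (wild-type replicate 3, deletion replicates 2 and 3). Within the low arrays the median difference of the members was 0.49, beside 0.07 over all tested genes. Within the high arrays it was 0.74, beside 0.14 over all tested genes. Each of these fits sets 2 arrays against 1, and the lone array has no spread of its own. All 27 members called over 6 arrays had the same sign in both sets. For each of them the deletion arrays lay entirely above or entirely below the wild-type arrays, so this outcome was fixed in advance.

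Scaling changed the calls of members with small differences. Centring each array on its median, which shifts the median of all genes by 0.15, gave 19 members higher and 6 lower. Over all 5449 tested genes it gave 1481 higher and 1803 lower. Cyclic loess gave the same member counts, beside 1641 higher and 1601 lower of all genes. Quantile normalization over the tested genes gave 16 members higher and 10 lower, beside 1356 and 1935 of all genes. The list's median turned from 0.63 to -0.03 there. Quantile normalization moved the calls of DIT2, SPR1, SPO75 and SPO77 to lower and ended those of SPS100, SPR28, SSP2, ADY3 and ADY4. In total 13 members kept their call as higher under all 20 alternatives run in which they were tested: CDA1, SPR3, SPS22, SPS1, GAS4, SSP1, SPS19, DIT1, SPO20, CRR1, OSW2, SPO21 and DON1. Their differences after quantile normalization ran from 0.74 for OSW2 to 3.77 for CDA1. That setting shrank OSW2 from 1.55 and CRR1 from 1.74 to 0.86. The calls of SPS4, SMK1 and GAS2 as lower were kept under all 20 as well, with SPS4 at -2.09 after quantile normalization. The share of all tested genes that kept a call under all 20 was not counted. The numbers of kept calls are therefore not read as a trait of the members.

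**Figure D5:**
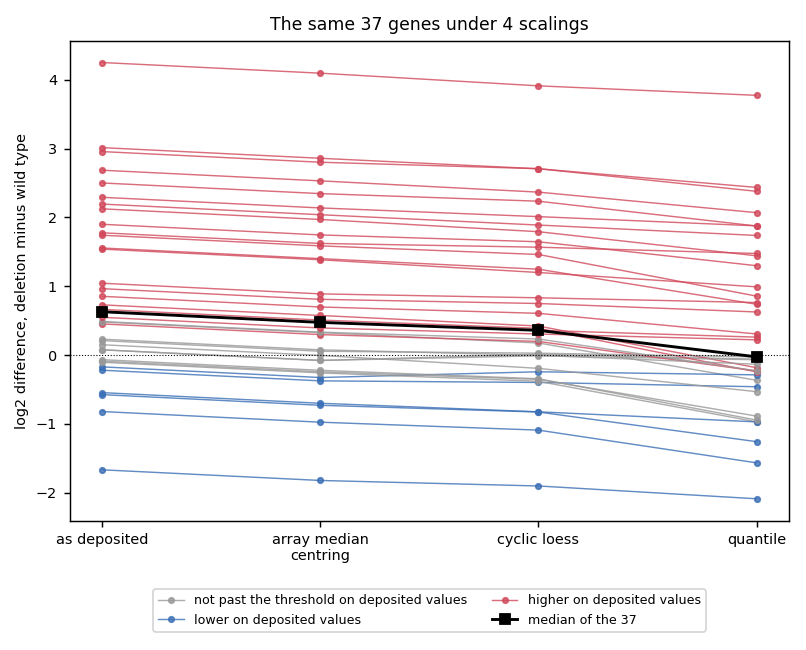
Log2 difference of each of the 37 genes (vertical axis) on the deposited values and after array median centring, cyclic loess and quantile normalization, coloured by the call on the deposited values, with black squares for the median of the 37. The upper red lines stay above 0 under every scaling, while the median falls from 0.63 to -0.03 and several grey lines sink below 0 on the right.

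Genes of the same programme outside the list also moved in both directions. Of 33 other middle and late genes, 19 were called higher and 6 lower, beside 39.6% and 19.8% of all tested genes. A called difference of at least 2-fold upward was seen for 13, beside 8.33% of all genes, and the median difference was 0.32. This list too was chosen with earlier results of these data known. PES4, which encodes a predicted RNA-binding protein, was at background in wild type and at least 5.82-fold higher (limma adjusted p = 6.5e-06). Its relative MIP6 rose 5.35-fold, LDS2, which acts in dityrosine layer formation, 5.32-fold, and SPO1, a gene of spindle pole and membrane formation in meiosis, 4.64-fold. SGA1, the sporulation glucoamylase gene, was called higher by 2.15 on the log2 scale with 1 of 3 wild-type arrays above background. IRC18, an outer wall gene, was called higher by 2.59 (adjusted p = 0.00087), but only 1 of 3 wild-type arrays was above background, so no fold is given, and it read 9.48 in deletion replicate 3 against 8.55 and 8.47 in the other deletion arrays.

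Further genes of that list were named after their values were seen, for their relation to members or their direction. MPC54, which encodes the plaque partner of Spo21, rose from 7.38, 7.51 and 7.46 to 9.30, 9.45 and 9.45, or 3.88-fold. YSW1, a relative of SPO21 needed for membrane formation, rose 2.50-fold. The 6 that fell were the spore aquaporin gene AQY1 (2.27-fold), SPS18 and the B-type cyclin genes CLB1, CLB3, CLB4 and CLB6. The cyclins also drive the mitotic cycle, so their levels are not specific to sporulation.

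Of 20 early meiosis genes measured, 10 were called higher and 2 lower, beside 39.6% and 19.8% of all tested genes, with a median of 0.37 that turned to -0.34 after quantile normalization. IME1, the master activator of meiotic entry, read 9.41, 9.34 and 9.36 in wild type and 9.51, 9.40 and 9.48 in the deletion strain (difference 0.09, SE 0.05, limma adjusted p = 0.15), but it was called lower after quantile normalization, at -0.33, and after cyclic loess, at -0.20. IME2, the kinase gene downstream of it, was higher by 0.38 (SE 0.10, adjusted p = 0.017) but lower by 0.42 after quantile normalization. The call of IME2 also ended in 6 other alternatives, among them array centring (0.22, adjusted p = 0.0753) and cyclic loess (0.05, adjusted p = 0.671). UME6, whose product keeps early genes off in dividing cells, fell by 0.46 (SE 0.06, adjusted p = 0.00075). HOP1, a gene of the chromosome axis in meiosis, was at background in wild type and at least 3.72-fold higher, and REC8, the meiotic cohesin gene, was called higher by 1.79 with 1 of 3 wild-type arrays above background. REC104 and RIM4 rose 2.49-fold and 2.38-fold, though REC104 missed the threshold after quantile normalization (0.46, adjusted p = 0.0523).

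The Sum1 and Hst1 repressor is also known to hold down NAD synthesis genes. Of 6 such genes, 4 were called higher and none lower, beside 39.6% and 19.8% of all tested genes. BNA2, for the first enzyme of NAD synthesis from tryptophan, rose 9.03-fold, from 8.56, 8.48 and 8.23 to 11.73, 11.57 and 11.50 (log2 difference 3.18, SE 0.10, limma adjusted p = 4.7e-06). The nicotinic acid transporter gene TNA1 rose 2.64-fold and BNA1 2.23-fold, and BNA5 was higher by 0.39.

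Relatives of the members that serve dividing cells moved in both directions. Of 13, 4 were called higher and 5 lower, beside 39.6% and 19.8% of all tested genes, with a median of -0.17. YGP1, the relative of SPS100 known from starved cells, rose by 4.01 (SE 0.07, limma adjusted p = 3.9e-07), from values of 10.11 to 10.33 up to 14.19 to 14.24. The vegetative septin genes moved little beside the 3.01 of SPR3: CDC3 by -0.25, SHS1 by 0.21 and CDC10 by 0.15, while CDC11 (-0.17) and CDC12 (-0.19) did not pass. These small calls depended on scaling: after array centring SHS1 and CDC10 did not pass, at 0.05 and -0.0050, and CDC11 and CDC12 passed as lower, at -0.32 and -0.34. Of the transferase relatives of GAS2 and GAS4, GAS3 fell 2.54-fold, GAS1 fell by 0.21, and GAS5 did not pass (0.10, adjusted p = 0.084). EXG2, a relative of SPR1, fell 1.56-fold. EXG1, another relative of SPR1, did not pass (-0.03, adjusted p = 0.65), though it passed as lower after array centring, at -0.18. The CRR1 relatives parted, with UTR2 falling 1.82-fold and CRH1 rising 1.28-fold.

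Because sporulation belongs to cells that carry both mating types, markers of cell type were read on the same arrays. The 7 a-cell genes were above background in both strains, 1 was called higher and 1 lower, and their summed intensity had a log2 of 15.45 to 15.73 in wild type and 15.41 to 15.72 in the deletion strain. STE2, the alpha-factor receptor gene of a cells, read 13.88 to 14.01 in wild type and 13.82 to 13.92 in the deletion strain, and passed as lower only after array centring, at -0.22. Of 8 haploid-cell genes, which cells of both mating types keep off, all were above background in both strains, 2 were called higher and 4 lower, and the sum went from 14.47 to 14.50 in wild type to 14.32 to 14.39. The 4 alpha-cell genes were all called higher, and the log2 of their sum rose from 10.40 to 10.57 in wild type to 11.62 to 11.75 in the deletion strain. The counts for each marker list stand beside 39.6% of all tested genes called higher and 19.8% lower. The leading alpha-cell gene MF(ALPHA)1 was at background in wild type and at least 11.0-fold higher, and STE3 rose 4.34-fold. MF(ALPHA)2 and SAG1 differed far less, by 0.30 and 0.43 on the log2 scale. The alpha-cell markers thus moved in the same direction as the rising members, and their part in the members' differences was not tested.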

How the data were processed

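The authors deposited linear intensities for 10928 probe sets in each of 6 samples. RMA, affy and R 2.8.0 are listed for them, with no settings, per the submitters' processing notes. RMA usually corrects background, normalizes between arrays and summarizes probes, and tends to compress low values. No genome build is named for the array annotation, and coordinates were left out.

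Here log2 of the intensities was taken, and where several of the 5498 probe sets that match a single gene shared that gene, the one with the highest mean was used, which left 5449 genes. The test was limma 3.58.1 (R 4.3.3), a linear model with strain alone and moderated variances. P-values were adjusted by Benjamini-Hochberg over the 5449 genes, at a threshold of 0.05, and SE means the standard error from that model. The script was tested on simulated data. The number of arrays limits the precision. No 2 arrays were identical (correlations within strains 0.988 to 0.995).

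The members and lists were chosen with earlier results of these data known. All members could be named, and of each other list up to 6 called genes with the largest differences, IME1, IME2, UME6 and relatives of members. Alternatives changed the scaling, the filter on dim genes, the choice of probe set, the variance model (intensity trend or array weights) and the threshold (0.01). Others blocked on replicate number or spike level, or left out each array.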

Additional observations from a re-analysis of the deposited data

How the results depend on the processing

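Over the 37 genes and 20 alternatives, single genes kept their side of the threshold in 677 cases, lost a call in 42 with the same sign and in 3 with the sign turned (SPS100, SPR28 and SSP2 after quantile normalization), and gained one in 15. With 1 array left out, 20 to 23 members were higher and 4 to 5 lower, and the median ran from 0.51 to 0.75. Of all 5449 tested genes, 1847 to 2053 were higher and 862 to 979 lower in these fits, with medians from 0.10 to 0.13. Quantile normalization gave 10 members lower and a median of -0.027, beside -0.071 over all tested genes. Cyclic loess gave a median of 0.36, beside -0.00035 over all tested genes. The high-spike arrays alone gave 3 members lower. Values floored at the highest background level, an alternative chosen after seeing the data, gave a median of 0.37 and ended the calls of CDA2, SPO19 and SPO74, by construction for CDA2 and SPO74. After quantile normalization SPS100 read -0.18, SPR28 -0.23, SSP2 -0.25, ZIP1 -0.13 and IME2 -0.42, and the early meiosis median was -0.34. CDC10 read -0.0050 after array median centring. The causes of these shifts were not tested.

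The replicate block called 22 members higher and 5 lower, beside 2130 and 1010 of all 5449 tested genes. It ended the calls of SPR28 (adjusted p = 0.0595) and SUM1 (adjusted p = 0.0779) and added OSW1 and SMA2, and it changed no other member's call. The numbers are not known to pair the samples: deviations of same-numbered arrays from their strain means correlated at 0.44, -0.51 and -0.44.

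Among other middle and late genes, quantile normalization gave 10 lower and a median of 0.13. Over all tested genes it gave 1356 of 5449 higher and 1935 lower. Early meiosis genes gave 4 higher and 10 lower there. After cyclic loess they gave 6 higher and 5 lower with a median of 0.068, beside 1641 higher and 1601 lower of all 5449 genes. Of the NAD genes, 1 was lower with the replicate block, spike level as a block, array median centring, cyclic loess or quantile normalization. In these settings, from 1010 (replicate block) to 1935 (quantile normalization) of all tested genes were lower. With 1 array left out the number of NAD genes lower ran from 0 to 1, the latter without deletion replicate 2. The vegetative relatives gave 2 higher and 8 lower after array median centring, beside 1481 and 1803 of all tested genes. They gave 2 higher after quantile normalization or cyclic loess. Against all probe sets and at the threshold of 0.01 they gave 2 higher and 3 lower. Of all 10928 probe sets, 2006 were higher and 1825 lower. At the threshold of 0.01, 1632 of all 5449 genes were higher and 679 lower. With 1 array left out the vegetative relatives ranged from 2 to 4 higher and from 3 to 6 lower. Over all tested genes the ranges were 1847 to 2053 and 862 to 979.

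Array signal limits what can be read for CDA2, OSW1 and SPO74, which lay at or near background.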
